A study of Bos grunniens x Bos taurus and Bos grunniens with 6 samples.

Results

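The genes described here are the histone genes of the testis transcriptome, including the histone variants that belong to sperm formation. They were taken from the table of FPKM (fragments per kilobase of gene length, scaled to library depth) by their symbol, as every row named for H1, H2A, H2B, H3, H4, macroH2A or CENPA, which gave 52 genes of the 18918 in the table. These 52 genes carry 38 symbols, and 22 of them share their symbol with another row, so gene identifiers are given where a symbol stands on more than 1 gene. The choice contained 0 genes with an H4 symbol.

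Testis RNA was sequenced from 3 cattle-yak, labelled TES5, TES6 and TES7, and from 3 yak, labelled Yak8, Yak9 and Yak10, with 1 library per animal and all animals 4 years old. Cattle-yak are F1 males from a Jersey bull and a Gannan yak cow and are sterile, while the yaks were Gannan males, and the comparison asks how the testis transcriptome of the sterile hybrid differs from that of its maternal species. The cattle-yak came from Xiahe County and the yaks from Linxia County, so the place cannot be told apart from the breed. The labels name castration as the source of every testis, whereas the study's methods describe euthanasia for the yaks, so collection may also have differed with the breed. Reads of both groups were mapped to the yak genome, and the libraries were made from total RNA with a kit that selects mRNA by its poly(A) tail.

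Histones are the proteins around which DNA is wrapped. The clustered core histone genes are switched on with DNA replication, and most of their mRNAs end in a stem-loop in place of a poly(A) tail, so that poly(A) selection captures them poorly. Replacement variants such as H3.3 and H2A.Z are made through the whole cell cycle from polyadenylated mRNA, linker histones of the H1 family bind the DNA between the nucleosomes, and in male germ cells testis variants enter the chromatin before transition proteins and protamines displace most histones in elongating spermatids. FPKM is a level per length of gene model, so levels of different genes can be set side by side, but near-identical histone genes share reads, and values of genes with the same symbol are uncertain where the counting could split them. In bulk tissue fewer cells of a type and less RNA per cell cannot be told apart.

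The library depth recovered from the FPKM was 11175100 to 11834987 fragments in cattle-yak and 12991641 to 13136129 in yak. The histone genes took 0.0939% to 0.115% of it. Markers of somatic cells differed between the groups. Higher and lower are calls by the rule given below, which called 33.4% of all genes higher in cattle-yak and 20.8% lower. All 12 Sertoli markers tested were higher in cattle-yak, with a summed level of 2724 to 2874 FPKM against 542 to 622 in yak, as were 5 of 5 Leydig and 5 of 5 myoid markers, while of 4 endothelial genes 1 was higher and 1 lower and of 4 macrophage genes 1 was higher and 2 lower. Of the germ cell markers, 5 of 6 spermatogonial genes were higher, and 1 of 6 spermatocyte genes was higher and 1 lower. All 2 round spermatid and 4 elongating spermatid genes with a row were lower. Of the 5 round spermatid genes listed only SPACA1 and ACR had a row under their symbol. PRM1 of the 5 elongating spermatid genes and HSD3B1 of the 6 Leydig genes listed had none. Summed elongating spermatid markers reached 12.8 to 65.8 FPKM in the cattle-yak libraries, and those of yak held 7939 to 9701 FPKM. No marker gene was at 0 in any library. With the median-of-ratios scaling described below, 10 Sertoli, 4 Leydig, 5 myoid and 4 spermatogonial markers were called higher, beside 17.7% of all genes. The 2 round and 4 elongating spermatid genes were still called lower, beside 27.7% of all genes.

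Of the 52 histone genes, 41 reached a mean of 0.5 FPKM over the 6 libraries and were tested with limma on log2(FPKM + 1) together with all other such genes, 15042 in all. Calls required a p under 0.05 after Benjamini-Hochberg adjustment over these genes, together with a difference of more than 1 in log2, either way, between cattle-yak and yak (the log2 fold change, cattle-yak minus yak). In cattle-yak 10 histone genes were called higher, which is 24.4% of those tested against 33.4% of all genes, and 10 were called lower, also 24.4%, against 20.8% of all genes. The median log2 fold change was 0.23 over the histone genes and 0.51 over all genes tested. The values of the groups did not overlap for 29 of the 41 genes, while 84.1% of all genes did not overlap in either direction. When the libraries were scaled by the median of ratios, which moved the median of all genes to 0.01, the histone genes split into 3 called higher (17.7% of all genes) and 13 called lower (27.7%), with a median of -0.36. The plot of log2 fold changes orders 40 of these genes by their difference.

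**Figure D1:**
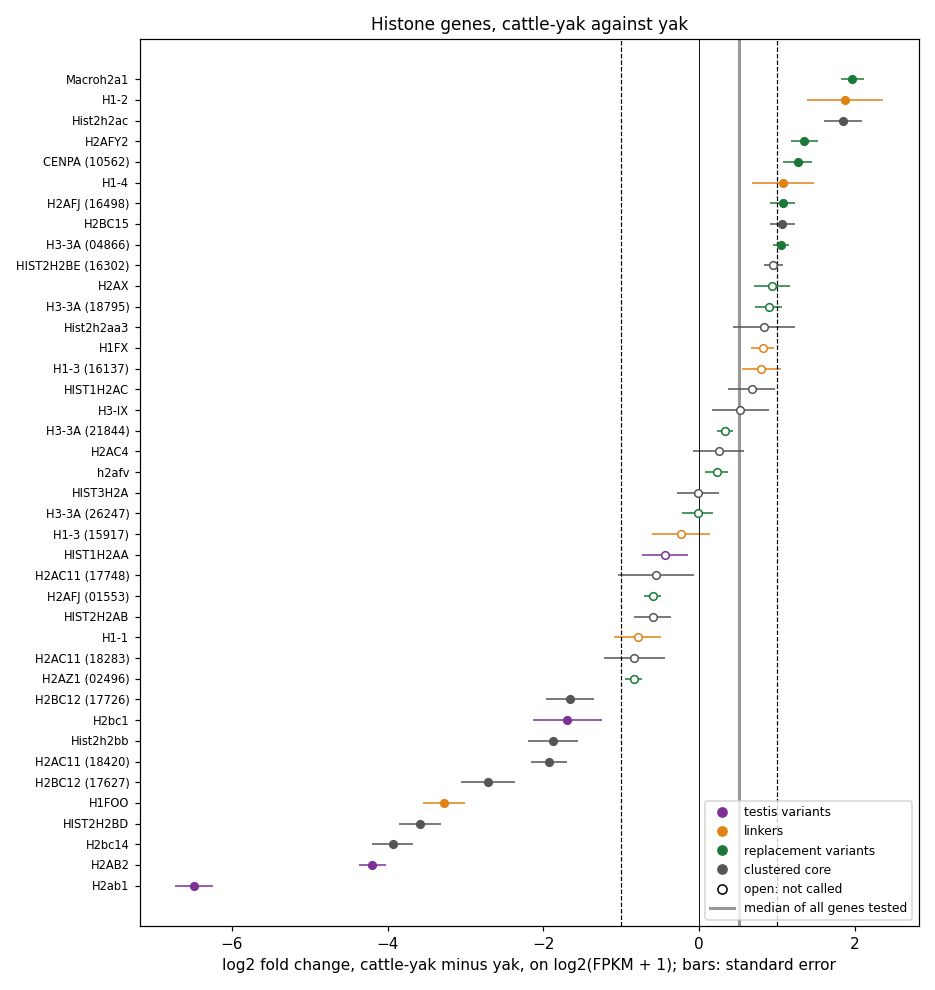
Log2 fold changes on log2(FPKM + 1), cattle-yak minus yak, of 40 of the 41 histone genes tested, coloured by class, with bars for the standard error and open points for genes not called. H2ab1 at -6.48 and H2AB2 at -4.20 lie farthest to the left, Macroh2a1 at 1.97 lies farthest to the right, dashed lines mark the threshold of 1 in either direction and the grey line marks the median of all genes at 0.51.

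By class, the testis variants were at the low end. Among these 4 genes 3 were called lower and 0 higher, with a median log2 fold change of -2.94, and with median-of-ratios scaling the split was the same. Among the 8 linker genes 3 were called higher and 1 lower, with a median of 0.81, against 1 and 1 with median-of-ratios scaling. Of 16 replacement variants 12 were tested, and 5 were called higher and 0 lower, with a median of 0.92, which became 1 higher and 2 lower with median-of-ratios scaling. Of 24 clustered core genes 17 were tested, and 2 were called higher and 6 lower, with a median of -0.55, against 1 and 7 with median-of-ratios scaling. Called higher were 37.5% of the linkers tested, 41.7% of the replacement variants and 11.8% of the clustered core, beside 33.4% of all genes. Called lower were 75% of the testis variants, 12.5% of the linkers and 35.3% of the clustered core, beside 20.8% of all genes. The shares of linkers and replacement variants called higher lay near that of all genes. With median-of-ratios scaling 17.7% of all genes were called higher and 27.7% lower. When log2 values were centred on the Sertoli markers, all 4 class medians were negative, from -5.15 for the testis variants to -1.29 for the replacement variants, with -1.70 for all genes. The unscaled medians stand beside the median of 0.51 for all genes tested, and a gene that passed the filter only through the group in which it was high had to differ.

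The H2A.B genes H2ab1 and H2AB2 encode short H2A variants that wrap less DNA and are known from male germ cells. H2ab1 was at 1.18, 0.25 and 0.12 FPKM in TES5, TES6 and TES7 and at 142, 123 and 122 FPKM in Yak8, Yak9 and Yak10. All 3 yak libraries lay far above all 3 cattle-yak libraries, and the mean in yak was 250.3 times that in cattle-yak, where only 13 fragments stood behind the values. The log2 fold change was -6.48 ± 0.24 (SE, limma adjusted p = 2.2e-07), the lowest of the 41 genes. H2AB2 was at 1.02, 0.81 and 0.52 FPKM in cattle-yak and at 28.6, 28.9 and 38.0 FPKM in yak. Again the groups were far apart, with 9 fragments in cattle-yak and 412 in yak (log2 fold change -4.20 ± 0.17, limma adjusted p = 3.4e-07). In yak H2ab1 ranked 4th by mean FPKM among the 52 genes, at 129 ± 11.4 FPKM (SD, n = 3).

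H2bc1 encodes the testis-specific H2B, TH2B, which replaces much of the canonical H2B during meiosis. Its levels were 5.50, 1.40 and 0.67 FPKM in cattle-yak and 10.3, 7.95 and 7.62 FPKM in yak. The groups did not overlap, but TES5 came much closer to the yak libraries than TES6 or TES7 did, and the log2 fold change of -1.69 ± 0.44 (limma adjusted p = 7.2e-03) was the smallest of the 3 calls. HIST1H2AA, the symbol of the testis-specific H2A that pairs with TH2B, was at 0.52, 0.55 and 0.80 FPKM in cattle-yak and at 2.58, 0.71 and 0.71 FPKM in yak. Only Yak8 stood out, the groups overlapped, and with 7 and 17 fragments in the 2 groups a difference was not detectable at this depth (log2 fold change -0.43 ± 0.29, limma adjusted p = 0.20). The 3 calls of the testis variants held under all 16 alternatives of scaling, filter, pseudocount, variance model and left-out library. The spermatid marker sums given above moved in the same direction as these 3 genes, and their part in the result was not tested.

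**Figure D2:**
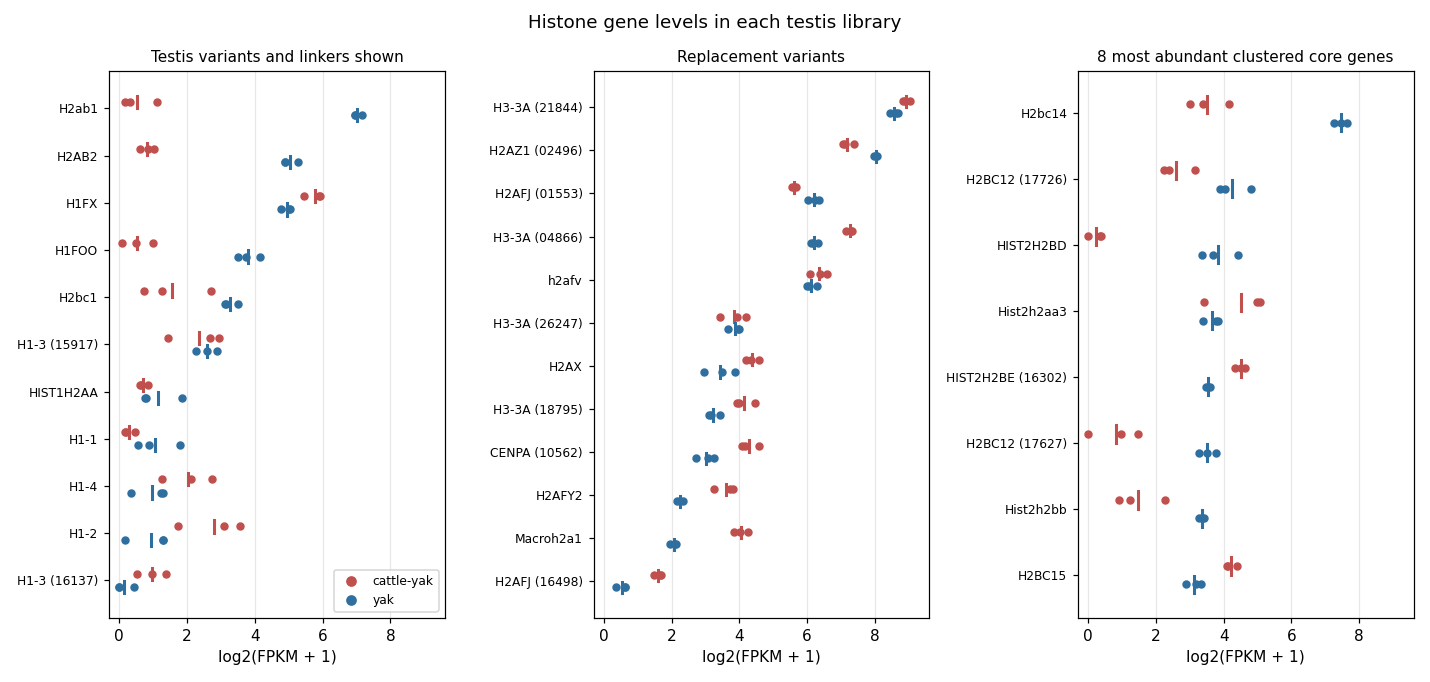
Levels as log2(FPKM + 1) in each library, with 3 points per group and a short line at the group mean, for the testis variants, 7 linker genes, the replacement variants tested and the 8 most abundant clustered core genes; the digits in brackets end the identifier. The H2ab1, H2AB2 and H2bc14 points of the groups lie far apart, while those of h2afv and of the H3-3A gene ENSBGRG00000026247 lie among each other.

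Among the linker genes, H1FX, whose linker histone is made independently of replication, was at 58.1, 43.1 and 60.1 FPKM in cattle-yak and at 31.3, 26.4 and 31.7 FPKM in yak. The groups did not overlap, but the log2 fold change of 0.82 ± 0.15 did not reach the threshold of 1 (limma adjusted p = 9.4e-04).

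H1FOO, known as the linker histone of oocytes, was called lower. It was at 1.01, 0.41 and 0.05 FPKM in cattle-yak and at 12.46, 16.6 and 10.2 FPKM in yak. The mean in yak was 26.9 times that in cattle-yak, on 908 and 30 fragments (log2 fold change -3.27 ± 0.27, limma adjusted p = 8.7e-06), and the call held under every alternative.

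The 5 clustered H1 genes were low and uneven. H1-2 was at 10.9, 2.31 and 7.55 FPKM in cattle-yak and at 0.13, 1.44 and 1.45 FPKM in yak, with a log2 fold change of 1.88 ± 0.49 (limma adjusted p = 7.0e-03). H1-4 was at 5.72, 1.40 and 3.29 FPKM against 0.26, 1.46 and 1.34 FPKM, so that TES6 fell below Yak9, and its log2 fold change was 1.08 ± 0.40 (limma adjusted p = 0.033). The H1-4 call was lost with median-of-ratios scaling (0.71), with a pseudocount of 0.01, without the filter, without TES5 (0.73) or Yak8 (0.78), and without TES7, where the adjusted p rose to 0.068. H1-1 was at 0.39, 0.14 and 0.13 FPKM in cattle-yak and at 0.46, 2.44 and 0.82 FPKM in yak, on 5 and 32 fragments and without overlap. Its log2 fold change of -0.79 ± 0.31 was not called (limma adjusted p = 0.04), and without Yak9 it was -0.43. It was called lower without Yak8 (-1.05), with pseudocounts of 0.1 (-1.88) and 0.01 (-2.29), and with TPM (-1.03).

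Of the 2 genes named H1-3, ENSBGRG00000015917 was at 6.64, 1.72 and 5.39 FPKM in cattle-yak and at 5.002, 6.36 and 3.82 FPKM in yak, so the groups overlapped (log2 fold change -0.23 ± 0.37, limma adjusted p = 0.58), and without TES6 the sign turned (0.23). The other, ENSBGRG00000016137, was at 1.602, 0.42 and 0.95 FPKM against 0.36, 0 and 0 FPKM. It rested on 22 fragments in cattle-yak and 3 in yak, a ratio of 8.31 with a 95% interval of 2.50 to 43.4 that covers counting error only, and it was not called on the log2(FPKM + 1) scale (0.80 ± 0.25, limma adjusted p = 0.016). It was called higher with pseudocounts of 0.1 (2.56) and 0.01 (4.72), with TPM (1.12), with voom (3.04) and without TES6 (1.02). TES6 was the lowest cattle-yak library for 6 of the 8 linker genes, against 28.0% of all genes tested. The spermatocyte markers summed to 156 FPKM in TES6, 242 in TES5 and 229 in TES7. Of these 6 markers 4 were lowest in TES6, while Piwil1 and MLH3 were lowest in TES7, and their part in the order of the linker genes was not tested.

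Both macroH2A genes were called higher. MacroH2A is an H2A with a large additional domain that is found on the inactive X chromosome and in other silent chromatin. Macroh2a1 was at 13.4, 18.1 and 15.1 FPKM in cattle-yak and at 3.41, 2.88 and 3.31 FPKM in yak. The groups were well separated with 4.86 times the yak mean in cattle-yak, and at 1.97 ± 0.15 it had the highest log2 fold change of the 41 genes (limma adjusted p = 5.8e-06), still called at 1.44 with median-of-ratios scaling. H2AFY2, the older symbol of the gene of macroH2A.2, was at 8.62, 13.2 and 12.4 FPKM against 4.10, 3.79 and 3.47 FPKM. It was called higher at 1.35 ± 0.18 (limma adjusted p = 1.3e-04), and the call was lost with median-of-ratios scaling (0.82). The ratio of Macroh2a1 to H2AFY2 was 1.39 ± 0.17 in the cattle-yak libraries and 0.85 ± 0.10 in those of yak (SD, n = 3), so that in each cattle-yak library Macroh2a1 was the more abundant and in each yak library H2AFY2 was.

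CENPA replaces H3 in the nucleosomes of the centromere, where the kinetochore is built. The most abundant of 3 genes with this symbol, ENSBGRG00000010562, was at 15.9, 16.9 and 23.1 FPKM in cattle-yak and at 7.36, 8.48 and 5.58 FPKM in yak. Every cattle-yak value lay above every yak value (log2 fold change 1.27 ± 0.19, limma adjusted p = 3.1e-04), and the value with median-of-ratios scaling was 0.70, no longer called. The other CENPA genes were not tested. ENSBGRG00000003207 was at 0.61, 0.64 and 0.83 FPKM in cattle-yak and rested on 1 fragment in each yak library, a ratio of 3.78 with a counting interval of 0.97 to 21.4. ENSBGRG00000012360 had 3 fragments in cattle-yak and was at 0 in yak.

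H3.3, the replication-independent H3, had the most abundant gene of the 52 in both groups. H3-3A is its symbol, and ENSBGRG00000021844 was at 523, 454 and 470 FPKM in cattle-yak and at 391, 348 and 407 FPKM in yak. The groups did not overlap but were close, with a log2 fold change of 0.34 ± 0.10 that was not called (limma adjusted p = 0.016) and turned to -0.28 with median-of-ratios scaling. The second, ENSBGRG00000004866, was at 157, 141 and 158 FPKM against 71.0, 68.0 and 78.7 FPKM. It was called higher at 1.06 ± 0.10 (limma adjusted p = 1.8e-05), and at 0.44 it was not called with median-of-ratios scaling. The ratio of the first H3-3A gene to the second was therefore lower in every cattle-yak library, at 3.18 ± 0.19 against 5.27 ± 0.21 in yak (SD, n = 3), a ratio within a library that does not depend on the scaling between libraries.

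The remaining H3.3 genes were less abundant. ENSBGRG00000018795 was at 14.4, 14.8 and 20.97 FPKM in cattle-yak and at 7.96, 7.61 and 9.74 FPKM in yak, without overlap, and its log2 fold change of 0.90 ± 0.17 did not reach the threshold (limma adjusted p = 1.4e-03). ENSBGRG00000026247 was at 17.4, 9.89 and 14.2 FPKM against 14.6, 11.7 and 14.8 FPKM, with overlapping groups and a log2 fold change of -0.01 ± 0.20 (limma adjusted p = 0.95). A gene with the symbol h3f3a stayed at 0.16 to 1.04 FPKM in all libraries and was not tested.

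H2A.Z marks promoters and enhancers. H2AZ1 (ENSBGRG00000002496) was at 167, 131 and 139 FPKM in cattle-yak and at 253, 259 and 268 FPKM in yak. The groups lay well apart, and the log2 fold change was -0.84 ± 0.11 (limma adjusted p = 1.4e-04), short of the threshold, whereas with median-of-ratios scaling H2AZ1 was called lower at -1.45. The gene of the second H2A.Z, with the symbol h2afv, was at 95.9, 67.0 and 82.1 FPKM against 66.2, 63.3 and 77.7 FPKM, with overlapping groups and a log2 fold change of 0.23 ± 0.15 (limma adjusted p = 0.18) that turned to -0.38 with median-of-ratios scaling. The level of H2AZ1 over that of h2afv was 1.80 ± 0.14 (SD, n = 3) in the hybrid and 3.79 ± 0.33 in yak, and the ratio in each cattle-yak library lay below that in each yak library. A second row with the symbol H2az1 was at 0.27 FPKM in Yak8 and at 0 in the other 5 libraries.

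H2AX, whose phosphorylated form marks DNA breaks and the sex body of spermatocytes, was at 19.2, 17.4 and 22.9 FPKM in cattle-yak and at 10.2, 6.71 and 13.5 FPKM in yak. All cattle-yak values were above all yak values, and the log2 fold change of 0.94 ± 0.23 fell just short of a call (limma adjusted p = 4.8e-03). Without TES6 it was called at 1.03 and without Yak10 at 1.15, and it was also called with pseudocounts of 0.1 and 0.01 (both 1.01) and with voom (1.01). H2A.J, a variant with a changed C-terminal end, had 2 genes under the symbol H2AFJ that moved in opposite directions. The abundant one, ENSBGRG00000001553, was at 50.3, 47.5 and 46.0 FPKM in cattle-yak and at 64.0, 81.2 and 74.0 FPKM in yak, without overlap (log2 fold change -0.59 ± 0.11, limma adjusted p = 1.1e-03), and it was called lower with median-of-ratios scaling (-1.20). The scarce one, ENSBGRG00000016498, was at 1.80, 2.22 and 2.14 FPKM against 0.54, 0.54 and 0.27 FPKM, on 20 and 5 fragments, and was called higher at 1.08 ± 0.16 (limma adjusted p = 2.9e-04), which was lost without Yak10 (0.98) and with median-of-ratios scaling (0.77).

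The clustered core genes supply histones for new chromatin during replication. The most abundant of them, H2bc14, which the table describes as H2B clustered histone 5, was at 16.9, 7.05 and 9.50 FPKM in cattle-yak and at 199, 153 and 174 FPKM in yak. The mean in yak was 15.7 times that in cattle-yak without any overlap, and the log2 fold change was -3.93 ± 0.27 (limma adjusted p = 3.2e-06). In yak H2bc14 ranked 3rd among the 52 genes at 175 ± 23.3 FPKM (SD, n = 3), after the first H3-3A gene and H2AZ1, while in cattle-yak it was not among the 8 most abundant.

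HIST2H2BD was close to 0 in cattle-yak, at 0.29, 0 and 0.29 FPKM on 4 fragments, and was at 9.27, 20.4 and 11.98 FPKM in yak on 322 fragments (log2 fold change -3.58 ± 0.27, limma adjusted p = 5.8e-06). Of the genes with the symbol H2BC12, ENSBGRG00000017627 was at 1.77, 0.94 and 0 FPKM against 12.6, 10.4 and 8.69 FPKM (log2 fold change -2.71 ± 0.35, limma adjusted p = 1.2e-04). ENSBGRG00000017726 was at 7.94, 3.70 and 4.26 FPKM against 15.5, 27.1 and 13.97 FPKM (-1.66 ± 0.30, limma adjusted p = 1.0e-03). The yak libraries were the higher ones in all these H2B genes. Hist2h2bb was at 3.84, 1.36 and 0.87 FPKM in cattle-yak and at 8.65, 9.63 and 9.33 FPKM in yak (-1.88 ± 0.32, limma adjusted p = 6.7e-04). The 5 calls of these H2B genes held under all alternatives.

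Other H2B genes were higher in cattle-yak. H2BC15 was at 16.1, 16.4 and 20.2 FPKM against 6.35, 9.06 and 8.15 FPKM, and was called at 1.07 ± 0.16 (limma adjusted p = 2.9e-04). This call was lost with median-of-ratios scaling (0.50), without TES7 (0.97) and without Yak8 (0.95). HIST2H2BE (ENSBGRG00000016302) was at 19.4, 22.0 and 23.6 FPKM against 10.5, 10.2 and 11.2 FPKM. The groups did not overlap, and its log2 fold change of 0.96 ± 0.12 (limma adjusted p = 9.6e-05) was just under the threshold and became a call without TES5 (1.03), with pseudocounts of 0.1 and 0.01 (both 1.02), with TPM (1.002) and with voom (1.02).

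The clustered H2A genes divided less clearly. The most abundant of them, Hist2h2aa3, was at 32.9, 9.79 and 30.5 FPKM in cattle-yak and at 13.2, 9.51 and 12.5 FPKM in yak. TES6 lay among the yak libraries and TES5 and TES7 well above them, so the log2 fold change of 0.84 ± 0.40 was not called (limma adjusted p = 0.083), and without TES6 it was called at 1.37. Hist2h2ac was at 7.37, 5.97 and 9.95 FPKM in cattle-yak and at 0.78, 1.96 and 1.58 FPKM in yak, without overlap, and its log2 fold change of 1.85 ± 0.24 (limma adjusted p = 1.4e-04) was among the 3 highest of the histone genes and held with median-of-ratios scaling (1.39). A gene with the symbol H2AC11, ENSBGRG00000018420, was called lower on 1 fragment in cattle-yak and 49 in yak, a ratio of 43.2 with a counting interval of 7.40 to 1742. That gene was named after its values were seen, because its call completes the 6 clustered core genes called lower.

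The other 7 clustered core genes tested stayed between 0 and 5.81 FPKM, and none was called. Of these, H2AC11 ENSBGRG00000018283 had a log2 fold change of -0.83 that was called lower without TES5 (-1.22), without Yak8 (-1.09) and with median-of-ratios scaling (-1.24). The 11 histone genes not tested lay between 0 and 1.20 FPKM, with 38 of 66 values at 0, and 6 of them had a single library above 0.

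Grouped by histone family, H2B had the lowest median and H1, with the linker counts given above, the highest. Of 8 H2B genes tested, 6 were called lower and 1 higher, with a median log2 fold change of -1.78. These are 75% and 12.5% of them, beside 20.8% and 33.4% of all genes tested. Of 6 H3 genes 2 were called higher and 0 lower, with a median of 0.71. The 33.3% of H3 genes called higher lay at the 33.4% of all genes. Among 19 H2A genes, whose median was -0.01, 4 were called higher (21.1%) and 3 lower (15.8%), both below the shares of all genes. With median-of-ratios scaling the calls were 0 higher and 6 lower for H2B, 0 in either direction for H3 (median 0.32), and 2 higher and 6 lower for H2A (median -0.38). That scaling called 17.7% of all genes higher and 27.7% lower. With Sertoli-centring the H3 median was negative too, at -1.50. The summed level of the H2B genes was 71.9, 53.2 and 59.4 FPKM in TES5, TES6 and TES7 and 273, 248 and 244 FPKM in Yak8, Yak9 and Yak10, so the groups stood far apart. The summed H3 genes reached 730, 639 and 689 FPKM in cattle-yak and 493, 444 and 518 FPKM in yak, apart in the other direction. These sums are not scaled between libraries beyond depth, and the median of all genes tested without further scaling was 0.51. Most of the H3 sum was the first H3-3A gene (means of 482 FPKM in cattle-yak and 382 in yak). Its log2 fold change turned to -0.28 with median-of-ratios scaling.

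H2A genes summed to 367 ± 45.2 FPKM in cattle-yak and 609 ± 15.1 FPKM in yak, and H1 genes to 222.5 ± 69.7 FPKM and 120.1 ± 6.07 FPKM (SD, n = 3). All histone genes together summed to 1337 ± 162 FPKM in cattle-yak and 1469 ± 50.8 FPKM in yak, with TES5 at 1471 FPKM among the yak libraries. The composition differed more than the total. H2B genes made up 4.29% to 4.89% of the summed histone FPKM of cattle-yak libraries and 16.3% to 18.3% of that of yak libraries, and testis variants 0.15% to 0.56% and 11.2% to 12.3%. Single genes carried most of these yak sums. By mean, H2bc14 held 175 of the 255 FPKM of the H2B genes, and H2ab1 129 of the 171 FPKM of the testis variants. Replacement variants were the largest class in every library, with 72.7% to 80.8% of the sum in the hybrid and 59.9% to 63.6% in yak. These sums and shares are descriptions without a test, since the genes were chosen with results of these data known.

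**Figure D3:**
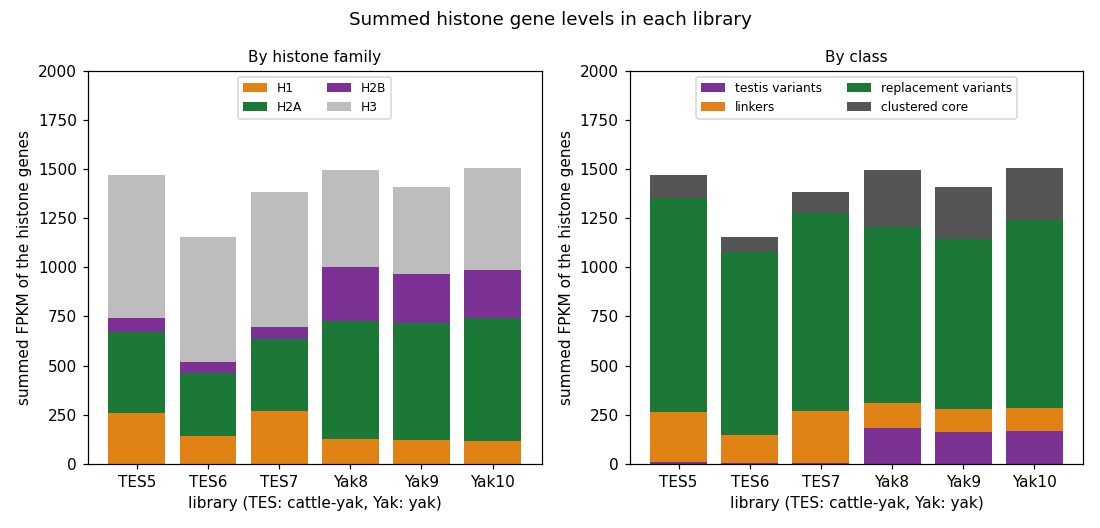
Summed FPKM of the histone genes in each library, stacked by histone family (left) and by class (right). The totals of 1157 to 1503 FPKM differ less than the parts: H2B sums to 53.2 to 71.9 FPKM in the 3 cattle-yak libraries and to 244 to 273 FPKM in the 3 yak libraries, and the testis variants sum to 2.11 to 8.23 FPKM against 161 to 184 FPKM.

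The order of the levels also differed between the groups. Among the 52 genes, the first 4 by mean FPKM in yak were H3-3A (382), H2AZ1 (259.9), H2bc14 (175) and H2ab1 (129). In cattle-yak the first H3-3A gene (482) was again the most abundant of them, and the second H3-3A gene (152) and H2AZ1 (146) did not differ beyond their spread between animals (SD 9.59 and 19.1 FPKM).

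Among the cattle-yak libraries, TES5 was the highest for most of the genes called lower. The exceptions rested on few fragments, but so did some of the others. HIST2H2BD was at 0.286, 0 and 0.292 FPKM in TES5, TES6 and TES7, and H2AC11 ENSBGRG00000018420 at 0, 0.23 and 0 FPKM. The 6 genes H2ab1, H2AB2, H2bc1, H1FOO, H2BC12 ENSBGRG00000017627 and Hist2h2bb were highest in TES5 and lowest in TES7, which is 60% of the 10 histone genes called lower, against 45.4% of the 3136 genes called lower in all. The elongating spermatid markers had the same order, with sums of 65.8, 24.6 and 12.8 FPKM in TES5, TES6 and TES7, as did the round spermatid markers with 24.4, 11.6 and 4.31 FPKM, and their part in the order of the histone genes was not tested. H2bc14 was also highest in TES5 but lowest in TES6. Few fragments stood behind the order of some genes. In TES5, TES6 and TES7 H2ab1 had 10, 2 and 1, H2AB2 4, 3 and 2, and H2BC12 ENSBGRG00000017627 8, 4 and 0. The order of the libraries in these genes is therefore uncertain.

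**Figure D4:**
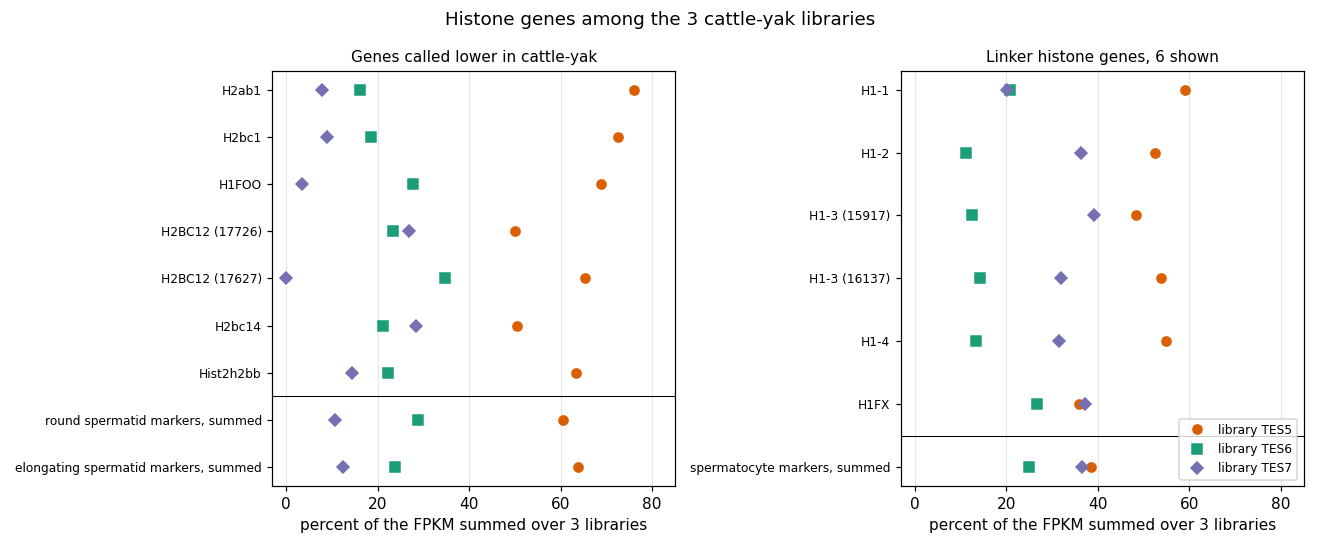
Share of each cattle-yak library in the summed FPKM of the 3 cattle-yak libraries, in percent, for the 7 genes called lower with at least 10 fragments in cattle-yak (left) and 6 linker genes other than H1FOO (right), with summed marker lists under the line. TES5 lies farthest to the right for all 7 genes on the left and for both spermatid lists, and TES6 lies farthest to the left for 5 of the 6 linker genes.

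The genes that supply histones were compared from a fixed list, as the pathway around these genes. Of 10 genes of histone mRNA processing, 3 were called higher and 1 lower in cattle-yak, with a median log2 fold change of 0.30, against 3 and 2 with median-of-ratios scaling. Without that scaling the shares of 30% and 10% were not above the 33.4% and 20.8% of all genes, and the median was below the 0.51 of all genes. With it the 3 and 2 of 10 genes stood beside 17.7% and 27.7% of all genes, and the median was -0.29 beside 0.01. NPAT, the transcriptional activator of the clustered histone genes, was at 21.5, 20.7 and 22.0 FPKM in cattle-yak and at 6.88, 5.79 and 7.03 FPKM in yak (log2 fold change 1.57 ± 0.12, limma adjusted p = 6.2e-06). Lsm11, a subunit of the U7 particle that cuts histone pre-mRNA, and Casp8ap2, its partner in the histone locus body, were also called higher, at 1.80 ± 0.17 and 1.55 ± 0.15. SYMPK, the scaffold of the cleavage complex, was called lower at -1.06 ± 0.12. Slbp, which binds the stem-loop of histone mRNA, was at 94.0, 85.3 and 87.6 FPKM against 51.7, 55.8 and 58.7 FPKM, without overlap and short of the threshold (0.67 ± 0.09, limma adjusted p = 2.0e-04).

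Of 27 histone chaperones and exchange factors listed, 24 had a row, and 12 were called higher and 3 lower, with a median of 0.87. This is 50% and 12.5% of them, beside 33.4% and 20.8% of all genes tested. ANP32E, which removes H2A.Z from nucleosomes, was at 263, 267 and 304 FPKM in cattle-yak and at 68.8, 72.0 and 79.6 FPKM in yak (1.90 ± 0.10, limma adjusted p = 9.7e-07). EP400, the ATPase of a complex that deposits H2A.Z, was also called higher (1.97 ± 0.15), whereas VPS72, which hands H2A.Z to the exchange complexes, was called lower, at 29.7, 23.8 and 22.3 FPKM against 69.9, 78.6 and 57.6 FPKM (-1.41 ± 0.15, limma adjusted p = 4.2e-05). The H3.3 chaperones also divided. HIRA (1.46 ± 0.12) and ATRX (1.71 ± 0.18) were called higher, UBN1, the partner of HIRA, was called lower at -1.24 ± 0.17, and DAXX was at 86.2 to 89.3 FPKM in cattle-yak and at 116 to 131 FPKM in yak (-0.46 ± 0.09, not called). HJURP, which loads CENPA, was called higher at 1.04 ± 0.17. With median-of-ratios scaling the chaperones split into 4 called higher and 5 called lower, where 17.7% and 27.7% of all genes were called.

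The replication-coupled H3 chaperone CAF-1 was uneven as well. CHAF1A was called higher (1.24 ± 0.12), and CHAF1B was called lower at 4.78, 4.98 and 3.41 FPKM in cattle-yak against 24.7, 23.3 and 20.8 FPKM in yak (-2.16 ± 0.16, limma adjusted p = 4.4e-06). Of 13 DNA replication genes listed 11 had a row, and MCM2, MCM3, MCM6 and POLA1 were called higher and 0 lower, with a median of 0.93 beside 0.51 for all genes. The 36.4% called higher lay near the 33.4% of all genes. PCNA, the sliding clamp, was at 153 to 163 FPKM in cattle-yak and at 158 to 179 FPKM in yak, with overlapping groups (-0.11 ± 0.09, limma adjusted p = 0.27). With median-of-ratios scaling 1 of the 11 replication genes, POLA1, was still called higher and 0 lower, where 17.7% and 27.7% of all genes were called.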

How the data were processed

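The authors deposited 1 table of FPKM for 18918 genes and 6 libraries. Per the study's methods, reads were trimmed with Trimmomatic and mapped with HISAT2 to the yak genome LU_Bosgru_v3.0, FPKM came from Cufflinks, and a count model was used for differential expression. The deposited FPKM are scaled to the depth of each library, without a further scaling between libraries such as the median of ratios. How reads matching several histone copies were counted is not given in the sources used here.

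The values of most genes could be read as multiples of single fragments. Whole fragments were recovered for 17973 of the 18918 genes. Only genes with every value within 0.03 fragments of a whole number were kept, so the 107838 values recovered do not test the recovery. The depth was chosen as the value that made gene lengths whole. Lengths were then whole within 0.02 bases for 99.4% of the 12681 genes used to find it. A fragment on 1 kb stood for 0.0761 to 0.0895 FPKM. Lengths were known for 46 histone genes, with a median of 465 bases, and 37 of them were multiples of 3 (80.4%, against 53.2% of all genes), as coding lengths are.

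The FPKM of 15042 genes with a mean of at least 0.5 were tested on the log2(FPKM + 1) scale in R 4.3.3 by limma 3.58.1 (eBayes with a trend, two-sided). A pseudocount of 1 understates the change of low genes. On simulated data limma called 197 of 200 genes changed 4-fold and 4 unchanged genes, of 14564. The simulation changed few genes, as many up as down, whereas 54.2% of all genes were called in the data. Its rates therefore cannot be carried over to these data. Tables and figures used Python 3.11.15, numpy 2.4.6, pandas 2.3.3, scipy 1.17.1 and matplotlib 3.10.9. Counting intervals are exact at 95% and cover counting error only. Any 2 libraries of a group differed beyond sampling noise (chi-square per gene 11.7 to 17.5).

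Groups follow the labels. The histone genes, classes and lists were chosen with earlier results of these data known. Named were every testis variant, replacement variant and linker gene, except 1 linker gene whose result is not reported here and which stays in the counts and sums, the 8 clustered core genes with the highest mean FPKM, and, among the calls, the 3 strongest changes upwards and the 3 strongest downwards. H2AFY2 was placed with the replacement variants after the table was read, because its older symbol was missing from the class list. H1FOO, whose newer symbol was on the list of testis variants, was not moved and was counted with the linkers. Alternatives were pseudocounts of 0.1 and 0.01, no filter, a minimum of 5 FPKM, scaling by median of ratios, TPM or the Sertoli markers, limma with a robust prior or without its trend, voom on the recovered fragments, and the omission of each library.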

Additional observations from a re-analysis of the deposited data

How the results depend on the processing

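The test compared 3 animals with 3, the place coincided with the breed, and the histone mRNAs without a poly(A) tail are captured poorly by the kit, so the data limit what can be said of low genes. No paired analysis was possible because the labels of the libraries share no number between the groups. Of the 41 genes tested, 10, those called lower, kept their side of the threshold and their direction under every alternative that tested them. The count called higher, 10 as reported, was 6 with a minimum of 5 FPKM, where 25 histone genes were tested and each kept its side of the threshold. It was 3 with median-of-ratios scaling and 0 with Sertoli-centred scaling. In the latter 36 genes were called lower (73.2% of all genes) and the median of all genes tested was -1.70. Without each library in turn the count called higher was 7 to 13, and the count called lower was 10 to 12.

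The median over the genes tested became -0.36 with median-of-ratios and -1.98 with Sertoli-centred scaling. The median of the testis variants was -3.71 and -3.83 with pseudocounts of 0.1 and 0.01, -4.20 with a minimum of 5 FPKM, -3.38 with median-of-ratios scaling, -5.15 with Sertoli-centred scaling, -3.67 with voom, and -3.27 to -2.68 without each library. That of the linkers was 0.34 with median-of-ratios and -1.40 with Sertoli-centred scaling, and that of the replacement variants 0.35 and -1.29, and 0.42 without the filter. That of the clustered core was -1.06 and -1.21 with pseudocounts of 0.1 and 0.01, -0.0496 without the filter, -1.77 with a minimum of 5 FPKM, -2.76 with Sertoli-centred scaling and -1.02 with voom.

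With Sertoli-centred scaling 21 genes turned negative, among them H1-2 -0.33, H1-3 (ENSBGRG00000016137) -1.41, H1-4 -1.13, H1FX -1.39, CENPA -0.94, H2AFJ (ENSBGRG00000016498) -1.14, h2afv -1.98, H2AFY2 -0.86, H2AX -1.27, H3-3A -1.88 (ENSBGRG00000021844), -1.16 (ENSBGRG00000004866) and -1.32 (ENSBGRG00000018795), Macroh2a1 -0.24, H2AC4 -1.96, H2BC15 -1.14, H3-IX -1.68, HIST1H2AC -1.53, Hist2h2aa3 -1.37, Hist2h2ac -0.36 and HIST2H2BE -1.25. With median-of-ratios scaling h2afv turned to -0.38, H3-3A (ENSBGRG00000021844) to -0.28 and H2AC4 to -0.0107. Near 0, HIST3H2A turned to 0.0149 with a pseudocount of 0.1, 0.0230 with 0.01, 0.0110 with TPM and 0.0231 with voom, and H3-3A (ENSBGRG00000026247) to 0.00504 with TPM. Without each library HIST3H2A ranged from -0.25 to 0.22, H3-3A (ENSBGRG00000026247) from -0.19 to 0.19, H2AC4 from -0.12 to 0.49 and H1-3 (ENSBGRG00000015917) from -0.52 to 0.23. The cause of these changes was not tested beyond the scaling itself.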

Other observations

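Histone genes whose symbol kept them out of the choice were read as well. Hils1, the linker histone of spermatids, was at 6.95, 2.32 and 1.68 FPKM in TES5, TES6 and TES7 and at 808, 756 and 903 FPKM in Yak8, Yak9 and Yak10, above every histone gene of the choice in yak. The groups lay far apart (log2 fold change -7.63 ± 0.35, limma adjusted p = 5.4e-07), and the order of the cattle-yak libraries was that of H2ab1 and H2bc1. A gene without a symbol (ENSBGRG00000003421) that the table describes as H3.4, the testis H3 variant, was at 8.84, 1.96 and 4.40 FPKM in cattle-yak and at 1.85, 1.49 and 0.75 FPKM in yak. TES6 came close to Yak8, the log2 fold change was 1.22 ± 0.41 (limma adjusted p = 0.022), and with median-of-ratios scaling it was 0.80 and not called. Another gene without a symbol (ENSBGRG00000017645), described as H2A clustered histone 11, was called lower on 1 fragment in cattle-yak and 22 in yak, a ratio of 19.4 with a counting interval of 3.14 to 801.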
